A study of Chlorella sp. with 12 samples.

Results

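The cultures of *Chlorella* sp. TLD6B, a green microalga, that had spent 18 days in 0.8 M NaCl (NaCl2) were compared with the control cells of day 0 (CK0), which started the cultures. The members are 4 of the 12 libraries of the series, 2 of NaCl2 and 2 of CK0, chosen by their labels and not by any measured value. All groups are the same strain grown from cells in the logarithmic phase in BBM medium, a mineral medium for freshwater algae, and the labels name no transgene or mutation. CK0 had no added NaCl and was taken on day 0, and NaCl2 had 0.8 M NaCl added to the same medium. The control of day 18 without added NaCl (CK18, 2 libraries) is given beside them, because NaCl2 differs from CK0 by both the salt and 18 days of culture, and these cannot be told apart in this comparison. The study calls the libraries of a group biological replicates, but the labels do not say whether these come from separate cultures, so the p-values measure only the spread between these libraries.

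Cells moved into strong salt lose water and take up sodium, and green algae respond by making compatible solutes such as sugars, polyols and proline, by exchanging ions at their membranes and by changing pigments and membrane lipids. In a batch culture the cells also meet falling nutrients and deeper shading with age, whether or not salt was added. The inoculum is therefore a reference for growing cells, and CK18 for aged cells without salt.

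Expression was measured as FPKM, a count of fragments per assembled transcript cluster (unigene) that is corrected for length and for the size of the library. The assembly has 155503 unigenes, of which 131623 are annotated in at least 1 database and 47032 carry a KO identifier, the KEGG name for a group of equivalent proteins. Because many unigenes were assembled for the same protein, the FPKM of unigenes that share a KO were added up (KO total), which gave 3282 KO totals, of which 3115 passed the filter on low values. Totals were scaled between libraries, and log2 differences of NaCl2 minus CK0 were tested with limma. A total was called higher or lower where its log2 difference was at least 1 in size with a p under 0.05 after Benjamini-Hochberg adjustment, and it was called kept if the 95% interval of its difference lay wholly between -1 and 1. All values given per library are FPKM as deposited, with replicate 1 first, while differences are log2 of scaled values and are followed by their SE. The scaling factors of KO totals were 1.13 to 1.39 in CK0, 1.32 to 1.42 in NaCl2 and 0.66 to 0.678 in CK18. A deposited FPKM of CK18 therefore reads low beside one of the other groups, and the fitted difference of CK18 minus CK0 is given where this matters.

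Best matches to green algae held 75.4% to 75.6% of the length-weighted FPKM in CK0 and 79.3% to 79.7% in NaCl2, so the libraries fit their label as green algal cells. Unigenes whose best match was an oomycete held 0.736% and 0.31% in CK0 and 0.24% and 0.129% in NaCl2. Across KO totals, the libraries of CK0 correlated with those of NaCl2 at r = 0.887 to 0.921 and with those of CK18 at 0.845 to 0.866, while libraries of the same group reached 0.979 to 0.989. These are descriptions over the totals of 6 libraries, without a test. CK0 replicate 1 and NaCl2 replicate 2 belong to the class of lower base quality and the other libraries of CK0, CK18 and NaCl2 to the higher one, so the class is balanced between CK0 and NaCl2.

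Between NaCl2 and CK0, 462 KO totals were higher, which is 14.8% of those tested, and 451 were lower, which is 14.5%, so 29.3% moved in either direction. A further 1112 totals, or 35.7%, were kept within 2-fold of the inoculum. The control of day 18 differed from the same CK0 libraries in 755 higher and 755 lower totals, 24.2% each and 48.5% in all. The split between higher and lower calls of NaCl2 depends on how libraries are scaled: with the scaling factors of the unigenes all KO differences move up by 0.58 on the log2 scale, and 939 totals are higher and 220 lower, so 81% of calls are higher instead of 50.6%. Lower calls also depend on single libraries, with 238 without CK0 replicate 1 and 273 without NaCl2 replicate 2, and kept totals fall to 633 without NaCl2 replicate 1 and 602 without NaCl2 replicate 2.

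The totals were then grouped into 36 lists by the role of their proteins. At least 50% of the tested totals were higher in the lists of fatty acid desaturases, nitrate and ammonium assimilation, chlorophyll and haem synthesis, carotenoid synthesis, ion exchange, the methionine cycle, organelle-type ribosomal proteins, aminoacyl-tRNA synthetases, the Calvin cycle, photorespiration and fatty acid synthesis. Kept totals took the largest shares among light-harvesting proteins (9 of 11) and cytosolic ribosomal proteins (52 of 78). Lists were chosen with earlier results of these data known and have no test of their own. Members named below that are not the extremes or the most abundant of their list were chosen after their values were seen.

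**Figure D1:**
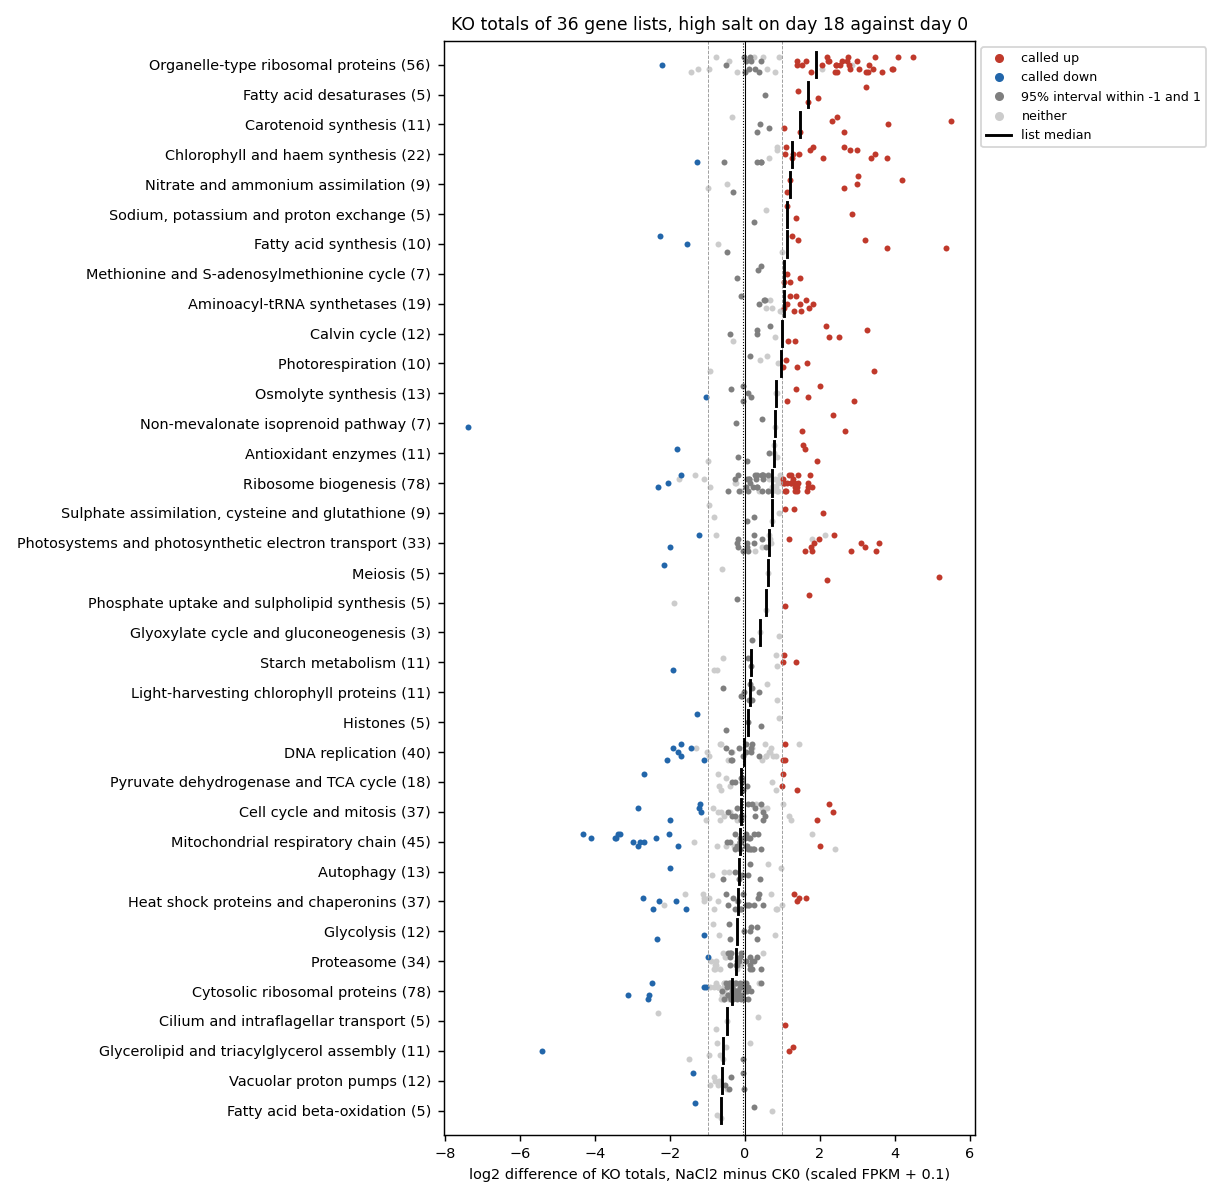
Log2 difference of every tested KO total in 36 lists, NaCl2 minus CK0, with 1 point per total and the number tested in parentheses. Red points were called higher, blue points lower, dark grey points were kept within 2-fold, and the black bar is the list median, from 1.91 for organelle-type ribosomal proteins to -0.64 for fatty acid beta-oxidation.

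Ribosomal proteins of the organelle type, which belong to the ribosomes of chloroplasts and mitochondria, had the highest median of the 36 lists. Of 56 tested totals, 31 were higher, 1 was lower and the median was 1.91, against -0.05 over all KO totals. Summed over the list, FPKM were 4540 and 3734 in CK0 and 23479 and 21517 in NaCl2, and 40672 and 36405.9 in CK18. The largest rise was in RP-L34, a small protein of the large subunit, with 19.5 and 10.6 FPKM in CK0 and 372 and 341 in NaCl2 (4.49 ± 0.20, adjusted p = 3.94e-05). RP-L10, which carries the stalk of the large subunit, went from 283 and 198 to 4059 and 3877 (3.94 ± 0.17, adjusted p = 3.48e-05). RP-L4, the most abundant of the list, went from 655 and 766 to 4191 and 4114 (2.42 ± 0.20, adjusted p = 0.000306). All 3 had both NaCl2 libraries far above both CK0 libraries. Over all 3115 KO totals tested, the libraries of CK0 and NaCl2 did not overlap in 2359, in either direction. The only lower total was MRPL43, a protein of the mitochondrial ribosome, with 113 and 132 FPKM in CK0 and 31 and 26.2 in NaCl2 (-2.23 ± 0.25, adjusted p = 0.000982).

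Cytosolic ribosomal proteins, which build the ribosomes of the cytoplasm, did not follow. None of 78 totals was higher, 6 were lower, 52 were kept, and the median was -0.35, a sign that turns to 0.25 with the scaling factors of the unigenes. In CK18 the median of the same list was 1.06 above CK0. RP-L37e, the most abundant, was at 72251 and 37472 FPKM in CK0 and 41048 and 36194 in NaCl2, with a difference of -0.56 ± 0.28 that was not called (adjusted p = 0.138). RP-L27e was at 26880.3 and 33845 FPKM in CK0 and 44672 and 41106 in NaCl2 and was not called either (adjusted p = 0.279). Of the 6 lower totals, 4 came almost wholly from unigenes without a green algal best match. The largest of them, RP-L29e, was at 1538 and 531 FPKM in CK0 and 211 and 60.6 in NaCl2 (-3.13 ± 0.58, adjusted p = 0.00632), and 0% of its FPKM in CK0 had a green algal best match. Without CK0 replicate 1, RP-L28e, RP-S19e and RP-LP1, the other totals of these 4, were no longer called, and of the whole list 1 total was lower without CK0 replicate 1 and 10 without CK0 replicate 2.

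Ribosome biogenesis, the making of ribosomes in the nucleolus, had 24 higher and 3 lower totals of 78 and a median of 0.73. In CK18, 46 totals of this list were higher than in CK0 and 0 lower, with a median of 1.28. PWP2, a part of the complex that processes the small subunit RNA, rose from 35.7 and 28.1 to 117 and 124 FPKM (1.79 ± 0.15, adjusted p = 0.000288), and NOP56, a core protein of RNA methylation particles, from 339 and 238 to 828 and 799 (1.39 ± 0.14, adjusted p = 0.000707). CK18 minus CK0 was 2.59 for PWP2 and 2.27 for NOP56. Fibrillarin, the methyltransferase of the same particles, was at 466 and 394 FPKM in CK0 and 874 and 834 in NaCl2 and stayed under the fold limit (0.86 ± 0.17, adjusted p = 0.00821). NOC3 was lower at under 3 FPKM in every library, and its call was lost without CK0 replicate 1 (adjusted p = 0.079), CK0 replicate 2 (0.0584) or NaCl2 replicate 2 (0.116). Aminoacyl-tRNA synthetases, which load amino acids onto tRNAs, had 10 higher and 0 lower totals of 19, with a median of 1.03. CK18 had 14 higher and 0 lower totals of this list against CK0, with a median of 1.49. The asparaginyl enzyme NARS was the highest riser, from 42 and 25.6 to 134 and 120.1 FPKM (1.82 ± 0.20, adjusted p = 0.00084), and the valyl enzyme VARS was at 143 and 135 FPKM in CK0 and 247 and 254 in NaCl2 without a call (0.72 ± 0.16).

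The synthesis of chlorophyll and haem rose along most of its length. Of 22 totals, 14 were higher and 1 was lower, and the median was 1.27, while in CK18 the median was 0.55 above the same CK0 libraries. The pathway starts from glutamate. HemA, glutamyl-tRNA reductase and a point of control of the pathway, went from 50.3 and 48.2 to 208 and 176 FPKM (1.83 ± 0.16, adjusted p = 0.000327). HemL, the aminomutase that makes 5-aminolevulinic acid, went from 35.8 and 38.8 to 354 and 299 (2.99 ± 0.19, adjusted p = 9.07e-05), against 44.5 and 49.5 in CK18. HemB, which joins the precursor into porphobilinogen, went from 15.8 and 13.6 to 105 and 96.3 (2.64 ± 0.16, adjusted p = 8.93e-05). In each case both NaCl2 libraries lay above both CK0 libraries, but 2359 of all 3115 KO totals tested had no overlap in either direction. The fitted differences of CK18 minus CK0 were 1.74 for HemA, 1.23 for HemL and 0.99 for HemB.

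HemC, which links porphobilinogen into a chain, rose from 4.48 and 4.37 to 54.5 and 47.6 FPKM (3.36 ± 0.25, adjusted p = 0.000169). HemD, which closes that chain into a ring, was the lower one, with 15.7 and 21.5 FPKM in CK0 and 9.26 and 7.15 in NaCl2 (-1.29 ± 0.36, adjusted p = 0.0266), a call lost without CK0 replicate 2 (adjusted p = 0.119), without NaCl2 replicate 2 (0.0836) and with the scaling factors of the unigenes. HemE, the decarboxylase that follows, was at 84.4 and 78.4 FPKM in CK0 and 167 and 154 in NaCl2 and stayed under the fold limit (0.85 ± 0.15). On the chlorophyll branch, the magnesium chelatase subunit ChlH, which inserts magnesium, rose from 38 and 30 to 90.4 and 85.5 (1.25 ± 0.18, adjusted p = 0.00236). ChlG, chlorophyll synthase, which adds the phytol tail as the last step, rose from 15.4 and 12.5 to 112 and 101 FPKM (2.8 ± 0.17, adjusted p = 8.93e-05), against 10.6 and 11.8 in CK18 (CK18 minus CK0 0.59). The light-dependent reductase of protochlorophyllide (POR), the chlorophyllide a oxygenase CAO and the cyclase AcsF between these steps were kept within 2-fold.

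Proteins of the photosystems fell into 2 groups by where their gene lies. In green algae the reaction centre proteins are encoded in the plastid genome and most small, peripheral and soluble proteins in the nucleus. Of 11 tested plastid-encoded totals of the photosystem list, 8 were higher, 0 were lower and the median was 2.38. Of the 22 other members, 4 were higher, 2 were lower and the median was 0.24. This grouping was made after the values were seen, and the 12 higher totals of the whole list were 7 without NaCl2 replicate 2. PsbA, the D1 protein of photosystem II, was at 1.13 and 0.6 FPKM in CK0, 12.5 and 10.8 in NaCl2 and 0.42 and 1.1 in CK18 (3.5 ± 0.50, adjusted p = 0.00215). PsbC, its CP43 antenna, was at 1.04 and 0.54 FPKM in CK0, 13.4 and 9.77 in NaCl2 and 0.41 and 0.6 in CK18 (3.59 ± 0.41, adjusted p = 0.00094). PsbB, the CP47 antenna, was at 0.38 and 0.3 FPKM in CK0, 5.18 and 3.91 in NaCl2 and 0.43 and 0.28 in CK18 (3.2 ± 0.45, adjusted p = 0.00213). All 3 were higher in both NaCl2 libraries than in any library of CK0 or CK18, and CK18 minus CK0 was not called for any of them.

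Plastid-encoded genes of other pathways rose as well, and some of them were also higher in CK18 than in CK0. RbcL, the large subunit of Rubisco, the enzyme that fixes CO2, rose from 2.99 and 1.96 to 13.6 and 11.1 FPKM (2.16 ± 0.27, adjusted p = 0.00129). ChlL, a subunit of the light-independent protochlorophyllide reductase, rose from 0.2 and 0.09 to 4.17 and 3.48 (3.78 ± 0.51, adjusted p = 0.00175), and AccD, the plastid subunit of acetyl-CoA carboxylase, from 0.02 and 0.02 to 2.28 and 1.88 (3.8 ± 0.58, adjusted p = 0.00271). In CK18 RbcL was at 3.15 and 3.57, ChlL at 0.22 and 0.22 and AccD at 0.35 and 0.67 FPKM. CK18 minus CK0 was called for RbcL (1.33) and AccD (2.84) and not for ChlL (1.03). Over the 15 plastid-encoded totals tested in any list, 12 were higher and 0 lower. These genes were low in all libraries, at most 4.58 FPKM in CK0 and 13.6 in NaCl2, so the size of the fitted differences depends on the 0.1 FPKM that was added. Chloroplast transcripts carry no stable poly(A) tail, and the sources used here do not say how mRNA was selected, so the levels of plastid and nuclear genes were not set against each other.

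Among the nuclear members, PetE, the electron carrier plastocyanin, rose from 452 and 479.9 to 2078 and 1612 FPKM (1.84 ± 0.23, adjusted p = 0.0013), and PetH, the ferredoxin-NADP reductase that ends the electron transport chain, from 143 and 108 to 484 and 454 (1.79 ± 0.20, adjusted p = 0.000823). Psb27, a factor of photosystem II assembly, rose from 25.6 and 17.9 to 103 and 83 (1.97 ± 0.18, adjusted p = 0.000421). PsbO, a protein of the oxygen-evolving complex and the most abundant of the list, was kept, at 14919.8 and 8023 FPKM in CK0 and 10702 and 10300.0 in NaCl2 (-0.19 ± 0.24), against 5113 and 3972 in CK18 (CK18 minus CK0 -0.38). The photosystem I subunits PsaD and PsaF were kept as well, with differences of -0.19 ± 0.15 and -0.05 ± 0.15. PetN, a small subunit of the cytochrome b6f complex, was lower, with 232 and 239.9 FPKM in CK0 and 45.1 and 90.1 in NaCl2 (-2.01 ± 0.36, adjusted p = 0.0057), a call lost with all 12 libraries in 1 fit.

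Light-harvesting chlorophyll proteins, the antennae of both photosystems, had 0 higher and 0 lower totals of 11, and 9 were kept. LHCB1 was at 11251 and 11145 FPKM in CK0 and 14413 and 13685 in NaCl2 (0.20 ± 0.18), and LHCB2 at 5373 and 5513 FPKM in CK0 and 5553 and 5491 in NaCl2 (-0.11 ± 0.17). The median of the list, 0.14, turns negative with quantile normalization (-0.06) and with green algal matches only (-0.08), so no direction is given.

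The Calvin cycle, which builds sugar from CO2, had 6 higher and 0 lower totals of 12 and a median of 0.98, and CK18 lay 1.75 above CK0. Sedoheptulose-bisphosphatase, a light-regulated step of the cycle, rose from 37.9 and 40.2 to 442 and 386 FPKM (3.27 ± 0.16, adjusted p = 5.49e-05) and was at 748 and 725 in CK18. Phosphoribulokinase, which makes the CO2 acceptor, rose from 42.3 and 39.9 to 259.9 and 252 (2.5 ± 0.15, adjusted p = 8.93e-05), with 166 and 146 in CK18. GAPA, the plastid glyceraldehyde-3-phosphate dehydrogenase, rose from 1105 and 1522 to 7208 and 6222 (2.24 ± 0.26, adjusted p = 0.00101), and CK18 was at 31293 and 27369.9. The fitted differences of CK18 minus CK0 for these 3 were 5.13, 2.82 and 5.4. RbcS, the small subunit of Rubisco, was at 23153 and 31419 in CK0 and 23559 and 23431 in NaCl2 without a call (adjusted p = 0.393).

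Photorespiration, which recovers the product of the reaction of Rubisco with oxygen, had 5 higher and 0 lower totals of 10, with a median of 0.95, while CK18 had a median of -0.03. GLDC, the decarboxylating subunit of the glycine cleavage system, rose from 18.6 and 11.4 to 171 and 177 FPKM (3.44 ± 0.22, adjusted p = 0.000109) and was at 10.3 and 13.3 in CK18. GGAT, the aminotransferase that makes glycine from glyoxylate, rose from 71.4 and 77.8 to 219.8 and 211 (1.4 ± 0.18, adjusted p = 0.00141) and was at 67.3 and 71.4 in CK18. The fitted differences of CK18 minus CK0 were 0.585 for GLDC and 0.80 for GGAT. Those of NaCl2 minus CK18 were 2.85 for GLDC and 0.60 for GGAT, the latter under the fold limit. SHMT, which joins glycine units into serine, rose from 374 and 279.9 to 746 and 698 (1.03 ± 0.13, adjusted p = 0.00134), a rise of 0.84 with green algal matches only and 0.87 with quantile normalization, both under the fold limit.

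Carotenoid synthesis had 7 higher and 0 lower totals of 11, and its median was 1.46 (2.21 in CK18). Phytoene synthase CrtB, the entry into the pathway, was kept, at 64.3 and 58.1 FPKM in CK0 and 109.5 and 101 in NaCl2 (0.65 ± 0.14). Of the later enzymes 7 rose, while CrtISO and ZEP were kept. Phytoene desaturase PDS went from 9.68 and 8.34 to 146 and 134 FPKM (3.82 ± 0.14, adjusted p = 1.66e-05), and Z-ISO, the zeta-carotene isomerase, from 0.38 and 0.66 to 35.3 and 27.2 (5.49 ± 0.35, adjusted p = 0.000109). Zeta-carotene desaturase ZDS rose from 89.3 and 56 to 235 and 195 (1.46 ± 0.22, adjusted p = 0.00243), below the 570.3 and 792 FPKM of CK18. Lycopene beta-cyclase, which makes beta-carotene, rose from 9.68 and 10.9 to 58.2 and 55.4 (2.32 ± 0.27, adjusted p = 0.00099). CrtZ, the beta-carotene hydroxylase, was the most abundant of the list and was not called, at 405 and 604 FPKM in CK0 and 480.2 and 384 in NaCl2.

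The non-mevalonate pathway, which supplies the plastid with isoprene units for carotenoids and phytol, had 3 higher and 1 lower total of 7, and these ran in opposite directions. Dxr, the second enzyme, rose from 37 and 25.4 to 218 and 209 FPKM (2.67 ± 0.16, adjusted p = 8.75e-05), IspF from 30.8 and 25.8 to 163 and 151 (2.34 ± 0.14, adjusted p = 8.93e-05), and IspG from 115 and 97.6 to 337 and 333 (1.53 ± 0.14, adjusted p = 0.000457). IspE, the kinase between IspD and IspF, had the largest decrease of all named totals, from 129.7 and 155 in CK0 to 0.96 and 0.63 in NaCl2 (-7.41 ± 0.54, adjusted p = 0.000169), with 4.08 and 13.3 FPKM in CK18. Nearly all of its FPKM in CK0 came from 1 unigene, at 127 and 150.2 FPKM in CK0 and listed at 0 in both NaCl2 libraries. IspD, the step before, was kept, at 9.38 and 6.54 FPKM in CK0 and 7.48 and 7.02 in NaCl2.

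Assimilation of nitrate and ammonium had 6 higher and 0 lower totals of 9, with a median of 1.19. The nitrate transporter NRT rose from 40.5 and 43.4 to 291 and 283 FPKM (2.64 ± 0.18, adjusted p = 0.000131), and was at 47.5 and 53 in CK18. Nitrate reductase, the first step of reduction, rose from 20.2 and 25.4 to 452 and 456 (4.19 ± 0.28, adjusted p = 0.000131), and was at 104 and 163 in CK18. The ammonium transporter AMT rose from 105 and 99.8 to 911 and 862 (2.98 ± 0.20, adjusted p = 0.000131), and was at 773 and 1093 in CK18. All 3 had both NaCl2 libraries above both CK0 libraries, but 2359 of all 3115 KO totals tested had no overlap in either direction. CK18 minus CK0 was 1.16 for NRT, 3.42 for nitrate reductase and 4.07 for AMT. Glutamine synthetase, which fixes ammonium, rose from 1042 and 944 to 2395 and 2362 FPKM (1.13 ± 0.20, adjusted p = 0.00482), although the rise was 0.91 with green algal matches only and 0.96 with quantile normalization, and its adjusted p was 0.0534 with all 12 libraries in 1 fit. The NADH-dependent glutamate synthase GLT1 was at 788 and 1151 FPKM in CK0 and 777 and 712 in NaCl2 without a call, and the ferredoxin-dependent one rose from 199 and 158 to 449 and 437 (1.19 ± 0.13, adjusted p = 0.000879). The ferredoxin-dependent rise was 0.97 with green algal matches only.

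In sulphate assimilation, which leads to cysteine and glutathione, 3 totals were higher and 0 lower of 9. CK18 had 5 higher and 3 lower totals of this list against CK0. APR, the adenylyl-sulphate reductase, rose from 39.4 and 33.4 to 178 and 162 FPKM (2.1 ± 0.14, adjusted p = 0.000131), and ATP sulphurylase from 226 and 211 to 593 and 596 (1.32 ± 0.17, adjusted p = 0.00167). For APR, CK18 minus CK0 was 2.96. CysK, cysteine synthase, was the most abundant and lay just under the fold limit, with 1077 and 906 in CK0 and 585 and 533 in NaCl2 (-0.95 ± 0.13). The methionine cycle had 4 higher and 0 lower totals of 7, with MetC from 40.7 and 35 to 114 and 115 FPKM (1.47 ± 0.18, adjusted p = 0.00134), while S-adenosylmethionine synthetase was kept at 1142 and 826 FPKM in CK0 and 1339 and 1348 in NaCl2. CK18 had 5 higher and 0 lower totals of this list against CK0, and CK18 minus CK0 was 1.675 for MetC. Among transporters of phosphate, the sodium-dependent PIT rose from 228 and 256 to 854 and 878 (1.71 ± 0.21, adjusted p = 0.00123), with 1.93 for CK18 minus CK0.

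Fatty acid synthesis in the plastid had 5 higher and 2 lower totals of 10, and its desaturases 4 higher and 0 lower of 5. Against CK0, CK18 had 5 higher and 1 lower total of fatty acid synthesis, and 5 higher and 0 lower desaturases. FabI, the enoyl-ACP reductase that closes each round of elongation, rose from 2.11 and 1.52 to 87.6 and 84.7 FPKM (5.36 ± 0.18, adjusted p = 1.63e-05), and FabH, which starts the chain, from 6.75 and 4.39 to 56.7 and 54.5 (3.19 ± 0.26, adjusted p = 0.000297). FabF, which extends it, rose from 44.5 and 35.7 to 125 and 111 (1.43 ± 0.15, adjusted p = 0.000665). FATA, the thioesterase that ends the chain by releasing oleate, was lower, with 15.5 and 11.1 in CK0 and 4.14 and 1.97 in NaCl2 (-2.27 ± 0.34, adjusted p = 0.00251), and 8.98 and 7.51 in CK18 (CK18 minus CK0 0.22). FabD, which loads malonyl groups, was lower as well, with 55.1 and 53.9 FPKM in CK0 and 20.9 and 19.6 in NaCl2 (-1.55 ± 0.30, adjusted p = 0.00728), although its decrease was -0.96 with the scaling factors of the unigenes.

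The omega-3 desaturase FAD8, which makes triply unsaturated fatty acids, rose from 14.8 and 32.8 to 222 and 233 FPKM (3.23 ± 0.43, adjusted p = 0.00173). The stearoyl-ACP desaturase DESA1, which puts in the first double bond, rose from 94.3 and 115 to 440.2 and 437 (1.94 ± 0.20, adjusted p = 0.000715), and FAD2, which adds the second, from 96.1 and 118 to 312 and 306 (1.41 ± 0.21, adjusted p = 0.0026). In CK18, FAD8 was at 184 and 129, DESA1 at 203 and 193 and FAD2 at 178 and 196, and their fitted differences of CK18 minus CK0 were 3.71, 1.83 and 1.71. Assembly of glycerolipids and triacylglycerol had 2 higher and 1 lower total of 11, and the median was -0.59, which turns to 0.003 with the scaling factors of the unigenes.

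PlsC, an acyltransferase of the plastid type, rose from 15.6 and 13.2 to 41 and 35.8 FPKM (1.28 ± 0.20, adjusted p = 0.0027). GPAT3_4, the acyltransferase at the endoplasmic reticulum that starts glycerolipid assembly, was the lower one, with 28.3 and 6.42 FPKM in CK0, 0.32 and 0.13 in NaCl2 and 1.03 and 0.61 in CK18 (-5.42 ± 0.66, adjusted p = 0.00121). The acyltransferase MOGAT2 was at 322 and 339 in CK0 and 221 and 207 in NaCl2, and DGAT1, which makes triacylglycerol, at 47.8 and 40.5 FPKM in CK0 and 30.6 and 30.1 in NaCl2, and neither passed the fold limit. In peroxisomal beta-oxidation, which breaks fatty acids down, the transporter PXA was lower, with 289.6 and 301 FPKM in CK0 and 129 and 128 in NaCl2 (-1.33 ± 0.35, adjusted p = 0.0209), a call lost without CK0 replicate 2 (adjusted p = 0.0936) and with the scaling factors of the unigenes.

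Osmolyte synthesis had 5 higher (3 without CK0 replicate 1) and 1 lower total of 13, and the higher ones make sucrose, polyamines and inositol, while of the enzymes of proline and glycerol synthesis none was called. Sucrose-phosphate synthase rose from 16.2 and 12.7 FPKM in CK0 to 122 and 118 in NaCl2 (2.92 ± 0.17, adjusted p = 8.69e-05), and was at 5.9 and 6.09 in CK18. Its fitted difference of CK18 minus CK0 was -0.36 and was not called. The 2 enzymes of spermidine synthesis, SpeD and SpeE, rose from 46.4 and 23.4 to 143 and 147 (2.0 ± 0.24, adjusted p = 0.00115) and from 34.8 and 32.8 to 124 and 115 (1.69 ± 0.18, adjusted p = 0.000805). Ornithine decarboxylase, before them, rose from 231 and 383 to 814 and 864 (1.36 ± 0.32, adjusted p = 0.0143), but by 0.91 without CK0 replicate 1, and its call was lost with all 12 libraries in 1 fit. INO1, which makes the precursor of inositol, rose from 228 and 323 to 663 and 626 (1.11 ± 0.25, adjusted p = 0.0126), with 0.94 in place of this value with green algal matches only, and its call was also lost without CK0 replicate 1. Both were higher still in CK18: CK18 minus CK0 was 2.82 for ornithine decarboxylase and 2.18 for INO1. Their NaCl2 minus CK18 differences were -1.46 and -1.06. Against CK0, CK18 had 5 higher and 2 lower totals of the osmolyte list. P5CS, the key step of proline synthesis, was kept at 65 and 80 FPKM in CK0 and 89.5 and 87.6 in NaCl2 (0.17 ± 0.21), as were GPD1, which leads to glycerol, at 353 and 253 FPKM in CK0 and 329.7 and 299.9 in NaCl2, and the trehalose enzyme TPS at 232 and 217 FPKM in CK0 and 256 and 261 in NaCl2. GPD1 was far lower in CK18, at 34.6 and 37.6 FPKM. Its fitted differences were -2.15 for CK18 minus CK0 and 2.09 for NaCl2 minus CK18. ProC, the last enzyme of proline synthesis, was at 67.1 and 73.4 FPKM in CK0 and 141 and 129.5 in NaCl2 and was under the fold limit (0.81 ± 0.18, adjusted p = 0.0118), but it was called without CK0 replicate 2 (1.06, adjusted p = 0.00447). BetB, which makes glycine betaine, was lower, at 247 and 145 FPKM in CK0 and 103 and 99.6 in NaCl2 (-1.03 ± 0.22, adjusted p = 0.0102), a call lost without CK0 replicate 1 (adjusted p = 0.052), with FPKM as deposited, with the scaling factors of the unigenes and with all 12 libraries in 1 fit.

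Among ion carriers, 3 of 5 totals were higher and 0 lower. The KUP potassium transporter rose from 11.2 and 11.2 FPKM in CK0 to 91.8 and 88.9 in NaCl2 (2.87 ± 0.18, adjusted p = 9.07e-05), with 21.7 and 22.2 in CK18. Fitted differences for KUP were 1.86 for CK18 minus CK0 and 1.01 for NaCl2 minus CK18. ATP1A, which matches the sodium pump alpha subunit of animals, rose from 371 and 394 to 1115 and 1041 (1.36 ± 0.20, adjusted p = 0.00243), and was at only 20.6 and 27.2 in CK18. The 6 libraries of ATP1A form separate levels, with CK18 lowest, CK0 between and NaCl2 highest. NHE8, a sodium-proton exchanger, went from 4.28 and 3.4 to 9.26 and 9.3 (1.13 ± 0.28, adjusted p = 0.0173), a call lost without either NaCl2 library (adjusted p = 0.115 and 0.173). The plasma membrane proton ATPase, the most abundant of the list, was kept at 1381 and 1485 FPKM in CK0 and 1914 and 1788 in NaCl2. The vacuolar proton pump had 0 higher and 1 lower total of 12, and its median of -0.62 stood beside -2.49 for CK18. Its lower total, subunit C of the V-type ATPase, which links the soluble part of the pump to the membrane part, was at 100.2 and 66.7 FPKM in CK0 and 36.5 and 31.5 in NaCl2 (-1.4 ± 0.20, adjusted p = 0.00227), or -0.80 with the scaling factors of the unigenes, while CK18 was at 6.26 and 7.78. Over this list, quantile normalization gave 4 lower totals (median -0.88), and the scaling factors of the unigenes gave 0 (median -0.03).

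Antioxidant enzymes had 3 higher and 1 lower total of 11. Ascorbate peroxidase rose from 82.3 and 60.5 to 265 and 207 FPKM (1.6 ± 0.15, adjusted p = 0.000472), and monodehydroascorbate reductase, which recycles its substrate, from 83.3 and 66.5 to 245 and 234 (1.55 ± 0.15, adjusted p = 0.000503). SOD2, the iron or manganese superoxide dismutase, was kept at 783 and 566 FPKM in CK0 and 1198 and 1061 in NaCl2, with 198 and 184 in CK18 (CK18 minus CK0 -0.90). Copper-zinc SOD1 was lower at 36.4 and 9.54 FPKM in CK0 and 7.3 and 4.48 in NaCl2 (-1.81 ± 0.55, adjusted p = 0.0337), with 13.7% of its FPKM in CK0 from green algal matches, and its call was lost without CK0 replicate 1 (adjusted p = 0.146), either CK18 library or NaCl2 replicate 2. Peroxiredoxin Q rose from 6.48 and 1.42 to 14.5 and 11.7, and its call was lost without any 1 of 5 libraries, with adjusted p of 0.0544 to 0.15.

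Of 37 totals of chaperones, 4 were higher, 5 lower and 15 kept. Without CK0 replicate 1 these were 7 higher and 2 lower, and without NaCl2 replicate 2 the lower ones were 3. DnaK, the Hsp70 of plastids and mitochondria, rose from 526 and 538 to 1521 and 1536 FPKM (1.39 ± 0.17, adjusted p = 0.00119), and GroEL, their chaperonin, from 256 and 213 to 722 and 672 (1.45 ± 0.13, adjusted p = 0.000378). HSPA1_8, an Hsp70 total that holds unigenes matching cytosolic and chloroplast forms, was kept at 2041 and 2589 FPKM in CK0 and 2134 and 2023 in NaCl2. The cytosolic chaperonin subunit CCT1 was lower, at 148 and 153 FPKM in CK0 and 55 and 54.8 in NaCl2 (-1.58 ± 0.19, adjusted p = 0.00111), with -0.99 under the scaling factors of the unigenes. HSP20, small heat shock proteins that hold unfolded protein, fell from 274 and 219 in CK0 to 44.5 and 37.3 in NaCl2 (-2.71 ± 0.22, adjusted p = 0.000263), and was at 35.5 and 53 in CK18. Fitted differences for HSP20 were -1.59 for CK18 minus CK0 and -1.12 for NaCl2 minus CK18.

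DNA replication had a list median near that over all KO totals, -0.05, and its share of kept totals was not larger than theirs. Of 40 totals, 3 were higher (7.5%), 7 lower (17.5%) and 12 kept (30%), against 14.8%, 14.5% and 35.7% of all KO totals. The median was -0.02, turning positive with FPKM as deposited (0.11) or the scaling factors of the unigenes (0.58), while CK18 had a median of -1.71. The lower totals included subunits of the replicative polymerases and helicase. MCM5, a subunit of the helicase, was at 177 and 252 FPKM in CK0 and 54.6 and 54 in NaCl2 (-2.09 ± 0.27, adjusted p = 0.00146). POLD1, the catalytic subunit of DNA polymerase delta, was at 150.4 and 182 FPKM in CK0 and 56.2 and 54.2 in NaCl2 (-1.71 ± 0.22, adjusted p = 0.00141), and POLE2, of polymerase epsilon, at 126 and 173 FPKM in CK0 and 46.7 and 46.8 in NaCl2 (-1.79 ± 0.29, adjusted p = 0.00371). MCM6, in the same helicase as MCM5, was kept at 64 and 41.6 FPKM in CK0 and 66.7 and 59.1 in NaCl2, with 1.24 and 1.89 in CK18. RRM2, the small subunit of the enzyme that makes deoxynucleotides, rose from 183 and 213 to 428 and 477 (1.06 ± 0.21, adjusted p = 0.008), but by 0.86 without CK0 replicate 1 and with green algal matches only, by 0.97 with quantile normalization, and with an adjusted p of 0.0611 without NaCl2 replicate 2.

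Of 37 totals of the cell cycle, 3 were higher and 5 lower, and the lower ones were 1 without CK0 replicate 2 or NaCl2 replicate 1 and 2 without CK0 replicate 1 or NaCl2 replicate 2. CCNB, the mitotic cyclin B, rose from 7.57 and 6.04 to 34.6 and 37.1 FPKM (2.25 ± 0.23, adjusted p = 0.000687), and the checkpoint kinase TTK from 2.22 and 1.77 to 11.8 and 11.4 (2.35 ± 0.47, adjusted p = 0.00848). MAD1, another part of the spindle checkpoint, was lower, with 19 and 8.55 in CK0 and 1.79 and 1.81 in NaCl2 (-2.86 ± 0.46, adjusted p = 0.00332), and listed at 0 in both CK18 libraries, and its adjusted p was 0.168 with all 12 libraries in 1 fit. Cyclin A was kept at 366 and 302 FPKM in CK0 and 546 and 516 in NaCl2. The proteasome, which degrades proteins, had 0 higher and 1 lower total of 34 and 20 kept, with a median of -0.24 (0.35 with the scaling factors of the unigenes), beside -1.92 for CK18. Lower totals were 7 with quantile normalization (median -0.45) and 5 with green algal matches only (median -0.43). PSMD2, its base subunit, was kept at 634 and 477 FPKM in CK0 and 549 and 561 in NaCl2, with 40.8 and 53.2 in CK18. The 1 lower total of the fit reported, PSMA4, lay at the fold limit (-1.0) and lost its call without any 1 library other than NaCl2 replicate 1.

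**Figure D2:**
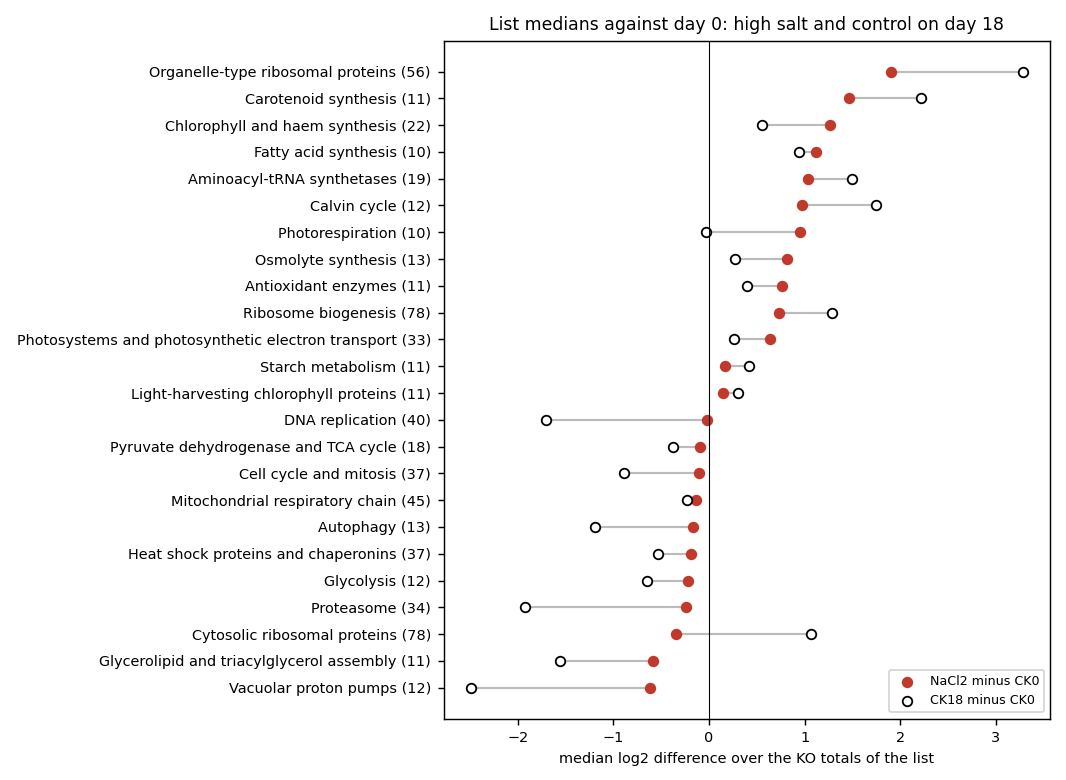
Median log2 difference of the lists with at least 10 tested KO totals, NaCl2 minus CK0 (filled) and CK18 minus CK0 (open), both against the same 2 CK0 libraries. The proteasome stands at -0.24 and -1.92, DNA replication at -0.02 and -1.71, and cytosolic ribosomal proteins at -0.35 and 1.06.

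Both medians of a list share the CK0 libraries, so they are set side by side without a measure of likeness. Starch metabolism had 3 higher and 1 lower total of 11 in NaCl2, and 5 higher and 3 lower in CK18, each against CK0. Starch synthase GlgA rose from 134 and 144 to 411 and 377 FPKM (1.37 ± 0.17, adjusted p = 0.0012), and alpha-amylase, which degrades starch, fell from 290.4 and 251 to 83.4 and 72.7 (-1.92 ± 0.16, adjusted p = 0.000312). CK18 minus CK0 was 2.12 for GlgA and -1.55 for alpha-amylase. Starch phosphorylase was at 871 and 919.6 in CK0, 567 and 540.0 in NaCl2 and 28.2 and 30.1 in CK18, and the first pair of values did not pass the fold limit (-0.82 ± 0.17). Glycolysis had 0 higher and 2 lower totals of 12, and 7 were kept. GpmI, the phosphoglycerate mutase that works without a cofactor, was at 554 and 399 FPKM in CK0 and 252 and 233 in NaCl2 (-1.08 ± 0.19, adjusted p = 0.00481), with 50.9 and 69.2 in CK18. Pyruvate dehydrogenase and the tricarboxylic acid cycle had 3 higher and 1 lower total of 18, and PDHB, a subunit of pyruvate dehydrogenase, rose from 136 and 119 to 388 and 350.2 (1.4 ± 0.14, adjusted p = 0.000561).

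Some totals were near the level of the inoculum in NaCl2 while CK18 was far from it. The 10 with the largest difference between CK18 and CK0 among kept totals of at least 10 FPKM are given as values only, because they were chosen for that difference. GAPDH, the glycolytic glyceraldehyde-3-phosphate dehydrogenase, was at 3537 and 2829 FPKM in CK0, 2618 and 2588 in NaCl2 and 74 and 103 in CK18. The aldehyde dehydrogenase E1.2.1.3 was at 955 and 849 FPKM in CK0, 766 and 679 in NaCl2 and 21.1 and 26.8 in CK18. KdsA, which in plants makes the sugar acid KDO of cell walls, was at 21.7 and 14.2 FPKM in CK0, 19.5 and 16 in NaCl2 and 0.11 and 0.16 in CK18. All 3 were far lower in CK18 than in the 4 libraries of CK0 and NaCl2.

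CSE1, which returns importin alpha from the nucleus, was at 37.6 and 34 FPKM in CK0, 38.6 and 39 in NaCl2 and 0.72 and 1.06 in CK18. COPS8, a subunit of the COP9 signalosome, was at 15.3 and 9.57 FPKM in CK0, 16.6 and 11.6 in NaCl2 and 0.24 and 0.43 in CK18, and the mRNA methyltransferase METTL3_14 at 19.9 and 17.6 FPKM in CK0, 26.3 and 25.4 in NaCl2 and 0.69 and 0.6 in CK18. The other 3 named here were far higher in CK18, and MCM6, given above, was far lower. CTNS, the cystine carrier cystinosin, was at 33.1 and 24.6 FPKM in CK0, 35.6 and 34.1 in NaCl2 and 408 and 390.5 in CK18. RraA was at 70.4 and 46.9 FPKM in CK0, 82.6 and 96.7 in NaCl2 and 644 and 680.4 in CK18, and the ubiquitin ligase BAH, which in plants takes part in phosphate and nitrogen responses, at 40.6 and 42.4 FPKM in CK0, 53.8 and 49.6 in NaCl2 and 312 and 344 in CK18.

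**Figure D3:**
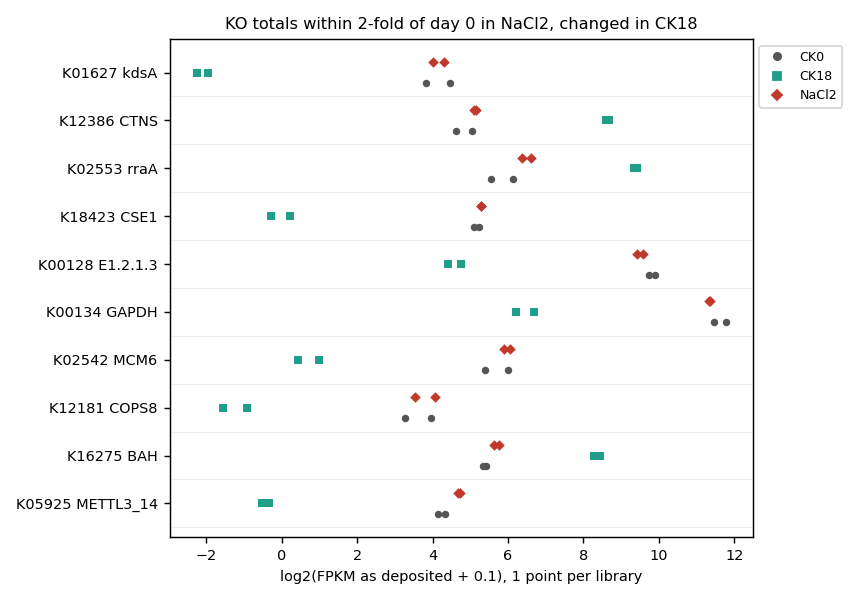
KO totals of the 10 kept totals with the largest CK18 minus CK0 difference, in each library of CK0, CK18 and NaCl2, as log2 of FPKM plus 0.1. The points of NaCl2 lie beside those of CK0, as for GAPDH at 2618 and 2588 FPKM against 3537 and 2829, and those of CK18 lie apart.

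The largest increases over the inoculum were led by MFI2, a melanotransferrin of the transferrin family, whose members in the salt-tolerant alga *Dunaliella* take up iron at the cell surface. It was at 0.05 and 0 FPKM in CK0, 715 and 541 in NaCl2 and 0 and 0.07 in CK18 (adjusted p = 1.66e-05). Only the NaCl2 libraries stood above 1 FPKM among these 6, and no fold is given against values so near 0. UBE2T, a ubiquitin-conjugating enzyme, was at 3.77 and 1.04 FPKM in CK0, 219 and 149 in NaCl2 and 1.37 and 0.77 in CK18 (6.28 ± 0.51, adjusted p = 0.000263). ILKAP, a protein phosphatase of type 2C, was at 9.68 and 7.03 FPKM in CK0, 382 and 298 in NaCl2 and 6.69 and 5.68 in CK18 (5.2 ± 0.18, adjusted p = 1.63e-05). CYP55, which matches the nitric oxide reductase of fungi, was at 10.4 and 24.5 FPKM in CK0, 381 and 456 in NaCl2 and 15.9 and 21.4 in CK18 (4.57 ± 0.47, adjusted p = 0.000665). In these 4 the libraries of CK0 and CK18 were low together and NaCl2 was high.

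In the other large increases CK18 was also above CK0. MSH5, a mismatch repair protein that acts in meiosis, was at 1.37 and 3.35 FPKM in CK0, 84.8 and 98 in NaCl2 and 50.4 and 46.2 in CK18 (5.19 ± 0.45, adjusted p = 0.000335). AtpH (ATPF1D), the delta subunit of the ATP synthase, was at 13.9 and 13.2 FPKM in CK0, 373 and 368 in NaCl2 and 601 and 643 in CK18 (4.63 ± 0.15, adjusted p = 1.63e-05). Asd, aspartate-semialdehyde dehydrogenase on the way to lysine and threonine, was at 10.2 and 13 FPKM in CK0, 237 and 253 in NaCl2 and 285 and 183 in CK18 (4.26 ± 0.28, adjusted p = 0.000109). Z-ISO, FabI and RP-L34, described above, complete the 10.

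**Figure D4:**
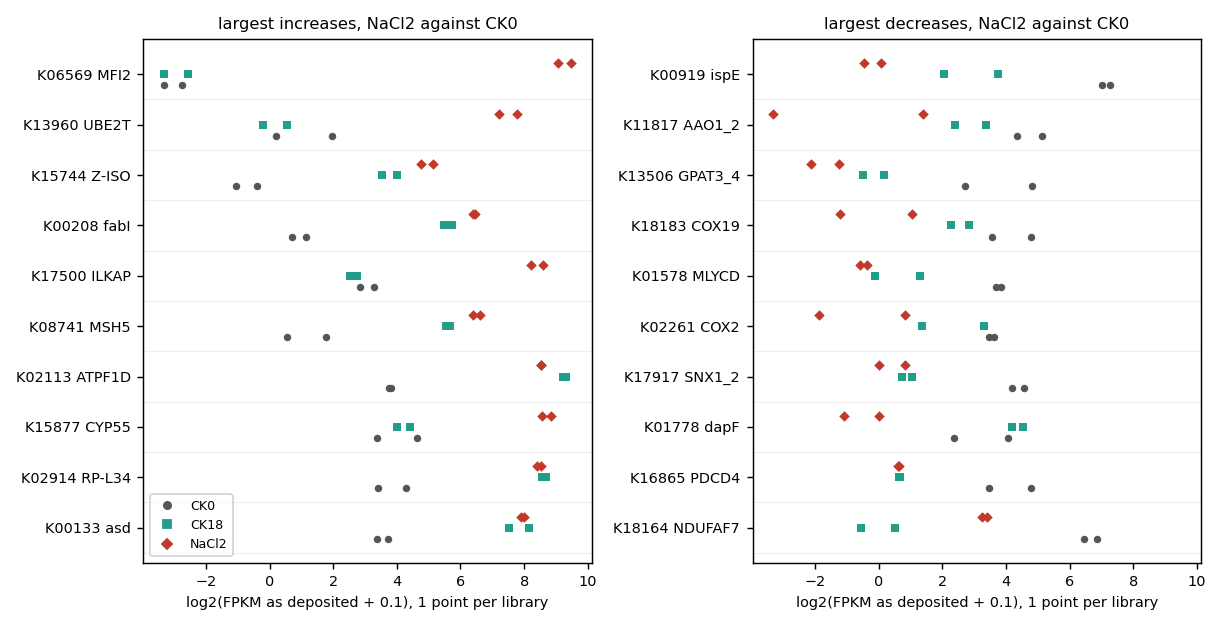
The 10 largest increases (left) and 10 largest decreases (right) of KO totals between CK0 and NaCl2, in each library as log2 of FPKM plus 0.1. MFI2 stands at 715 and 541 FPKM in NaCl2 alone, and IspE falls from 129.7 and 155 FPKM in CK0 to 0.96 and 0.63.

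Among the largest decreases besides IspE, AAO1_2, an aldehyde oxidase linked in plants to auxin, was at 35 and 20.4 FPKM in CK0 and 0 and 2.51 in NaCl2 (-5.58 ± 1.23, adjusted p = 0.0118), a call lost without CK0 replicate 1 (adjusted p = 0.0586). MLYCD, malonyl-CoA decarboxylase, which removes the building block of fatty acids, was at 12.8 and 14.1 FPKM in CK0 and 0.56 and 0.67 in NaCl2 (-4.31 ± 0.50, adjusted p = 0.00104), with 2.34 and 0.83 in CK18. SNX1_2, a sorting nexin of membrane traffic, was at 23.7 and 18.2 FPKM in CK0 and 1.66 and 0.91 in NaCl2 (-4.06 ± 0.34, adjusted p = 0.000304), and PDCD4, which in animals inhibits translation, at 11 and 27.4 FPKM in CK0 and 1.42 and 1.46 in NaCl2 (-3.6 ± 0.51, adjusted p = 0.00212). In CK18, SNX1_2 was at 1.56 and 1.98 and PDCD4 at 1.45 and 1.49, and CK18 minus CK0 was -2.62 and -2.61. DapF, an epimerase of lysine synthesis, was at 16.4 and 5.1 in CK0 and 0.91 and 0.37 in NaCl2 (-3.81 ± 0.52, adjusted p = 0.00181), while CK18 was above CK0 at 23.1 and 17.9. NDUFAF7, an assembly factor of respiratory complex I, was at 116 and 88.1 FPKM in CK0 and 9.37 and 10.4 in NaCl2 (-3.47 ± 0.38, adjusted p = 0.000808), with 0.58 and 1.34 in CK18.

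The mitochondrial respiratory chain had 1 higher and 13 lower totals of 45, and 25 were kept. The lower ones were 6 without CK0 replicate 1. Its median of -0.14 turns to 0.45 with the scaling factors of the unigenes. The lower totals were mostly those without green algal matches: of 12 totals with under 50% of their CK0 FPKM from green algal best matches 10 were lower, with a median of -2.93, and of 33 others 3 were lower and 24 kept, with a median of -0.03. This split uses the CK0 libraries, which also enter the difference, so it is a description only. COX19, which carries copper to cytochrome c oxidase, was at 27.7 and 11.7 FPKM in CK0 and 1.96 and 0.33 in NaCl2 (-4.33 ± 0.68, adjusted p = 0.00312), all from a unigene that matches the oomycete *Phytophthora*. The Rieske protein of complex III, with 98.6% green algal matches, was kept at 1298 and 1095 FPKM in CK0 and 1289.6 and 1299.7 in NaCl2. NDUFAF5, an assembly factor of complex I, was the higher one, from 50.7 and 36.5 to 191 and 188 (2.01 ± 0.15, adjusted p = 0.000169).

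The 4 tested mitochondrion-encoded totals were all lower and all below 15 FPKM in every library. COX1, the core of cytochrome c oxidase, was at 6.95 and 8.91 FPKM in CK0, 1.38 and 0.29 in NaCl2 and 4 and 11.1 in CK18 (-3.45 ± 0.70, adjusted p = 0.00879), and COX2 at 12.2 and 11 FPKM in CK0, 1.68 and 0.17 in NaCl2 and 2.49 and 9.89 in CK18 (-4.11 ± 0.90, adjusted p = 0.0117). The calls of COX2, COX3 and cytochrome b were lost without either CK0 library, with adjusted p of 0.05 to 0.0884. Green algal best matches held 3.85% of the COX1 and 49.1% of the COX2 FPKM in CK0, and with green algal matches only COX1 differed by -0.48 and was not called.

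Lower calls were also counted by green algal matches across all KO totals. Of 500 totals with under 50% of their CK0 FPKM from green algal best matches, 23 were higher and 215 lower, which is 43%, and the median was -1.81. Of the 2599 with more, 434 were higher, 236 lower, which is 9.08%, and 1082 kept, with a median of 0.07. The 50% limit was set after the values were seen. The share was taken from CK0, which also enters the difference, so totals with much other FPKM in CK0 may come out lower through the split itself. The oomycete share given above and the share of other organisms, which was 5.06% and 2.98% in CK0 and 2.88% and 2.41% in NaCl2, moved with these totals, and their part in the lower calls was not tested. In bulk RNA, fewer cells of an organism and less RNA per cell cannot be told apart. A best match outside the green algae does not show from which organism a transcript came.

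Unigenes were compared in the same way. Of 78348 tested, 9279 were higher in NaCl2 than in CK0, which is 11.8%, and 5719 were lower, which is 7.3%, or 19.1% in either direction. Among the 65102 annotated ones, 7758 or 11.9% were higher and 4526 or 6.95% lower, and 18.9% in either direction. At an unadjusted p under 0.05 there were 29006 of all tested unigenes. These counts rest on each library: without CK0 replicate 1 there were 4555 higher and 1215 lower, without CK0 replicate 2 there were 5606 and 1273, and without either NaCl2 library limma called 0 in both directions, with a smallest adjusted p of 0.0588 and 0.0597, while 19771 and 17062 had an unadjusted p under 0.05.

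Some unigenes were listed at 0 on one side of the comparison. Of 33228 unigenes with at least 1 FPKM in both CK0 libraries, 1067 were listed at 0 in both NaCl2 libraries, and 724 of these are annotated. In the other direction, 1111 of 28773 unigenes were listed at 0 in both CK0 libraries, and 808 of these are annotated. Only 191 of the former and 239 of the latter carry a KO. The 1067 and 1111 unigenes had median lengths of 631 and 792 bp. All unigenes with at least 1 FPKM in both libraries had 1324 bp for CK0 and 1384 bp for NaCl2. Of 168 KO with a unigene at 0 in NaCl2, 70 or 41.7% were kept, 35 lower and 13 higher. Of 201 with one at 0 in CK0, 80 or 39.8% were kept, 57 higher and 5 lower. The kept shares lie near the 35.7% of all KO totals tested, of which 14.8% were higher and 14.5% lower. These KO were picked by a unigene at 0 in NaCl2 or CK0, so their higher and lower counts partly follow from that choice. Among KO totals 2, PFDN1 and WRKY2, were listed at 0 in both NaCl2 libraries with at least 1 FPKM in both CK0 libraries, and 1, SLC25A44, in the other direction. WRKY2, a transcription factor family of plants, was at 2.49 and 2.01 FPKM in CK0 and listed at 0 in all libraries of NaCl2 and CK18. SLC25A44, a mitochondrial carrier, was listed at 0 in CK0 and CK18 and at 3.92 and 4.19 FPKM in NaCl2. The total of PFDN1, a prefoldin subunit, was 2.01 and 2.7 in CK0, with 0% green algal matches, and its call was lost without either CK0 library (adjusted p = 0.103 and 0.146).

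Of the unigenes with the largest changes, P450 55A3, the fungal-type nitric oxide reductase, was listed at 0 in CK0 and at 221 and 210.0 FPKM in NaCl2, with 8.81 and 9.61 in CK18. A group 1 truncated hemoglobin, of a family that in *Chlamydomonas* takes part in nitric oxide and nitrate signalling, was listed at 0 in CK0 and at 131 and 126 in NaCl2, with 13.8 and 26.6 in CK18. The urea-proton symporter DUR3, which imports urea, was at 0.05 and 0 in CK0, 174 and 166 in NaCl2 and 0.55 and 0.41 in CK18. A unigene of D-3-phosphoglycerate dehydrogenase, the entry to serine, was listed at 0 in CK0 and at 134 and 107 in NaCl2, but CK18 was also high at 85.4 and 50.6. Its NaCl2 minus CK18 difference of 0.52 was not called. A sodium-dependent phosphate transporter was listed at 0 in CK0 and at 76.3 and 81.7 in NaCl2, with 0.52 and 1.45 in CK18. For NaCl2 minus CK0, all 5 had adjusted p between 0.00165 and 0.00325 in limma.

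The largest decreases of unigenes besides IspE were PNO1, an RNA-binding protein of ribosome assembly, at 53.3 and 93.8 FPKM in CK0 and 0.01 and 0 in NaCl2, and a glutamyl endopeptidase at 90.7 and 140.1 FPKM in CK0 and 0.2 and 0 in NaCl2, with 144 and 116 in CK18. A multidrug resistance-associated protein was at 33.9 and 121 in CK0 and listed at 0 in NaCl2 and CK18, and a kinase annotated as CTR1 at 56.2 and 33.9 in CK0, 0 in NaCl2 and 55.3 and 25.8 in CK18. A unigene of the autophagy protein ATG18a was at 45.3 and 34.4 in CK0 and listed at 0 in NaCl2. In CK18, PNO1 was at 0 and 0.01 and ATG18a at 1.56 and 1.66. None of these calls remained without either NaCl2 library.

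Some KO totals held unigenes that moved in opposite directions. Of 1090 kept totals with at least 2 unigenes, 236 or 21.7% held both a unigene that was higher and one that was lower, against 14.4% of higher, 9.58% of lower and 13.8% of the remaining totals. The number of unigenes per total was not matched between these groups. At least 2 were held by 1090 of 1112 kept totals but only by 313 of the 449 lower ones in this count. The moving unigenes were a small part of some totals and a larger part of others, and whether they offset each other was not tested. Inorganic pyrophosphatase, which clears pyrophosphate, had a total of 2527 and 2304 FPKM in CK0 and 2101 and 2011 in NaCl2 (-0.36 ± 0.14). Inside it, a chloroplast-type unigene rose from 6.68 and 4.46 to 59.3 and 55.3 (3.82 ± 0.26, adjusted p = 0.00417), and a unigene matching the vacuolar proton-pumping form fell from 19.4 and 31.6 to 1.68 and 2.75 (-3.0 ± 0.50, adjusted p = 0.0182). For HSPA1_8, a chloroplast-type unigene rose from 28.1 and 42.3 to 273 and 259.9 (3.41 ± 0.26, adjusted p = 0.00512), and one matching the cognate protein of the cytosol fell from 49 and 19.6 to 6.61 and 2.74 (-2.37 ± 0.58, adjusted p = 0.0485).

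**Figure D5:**
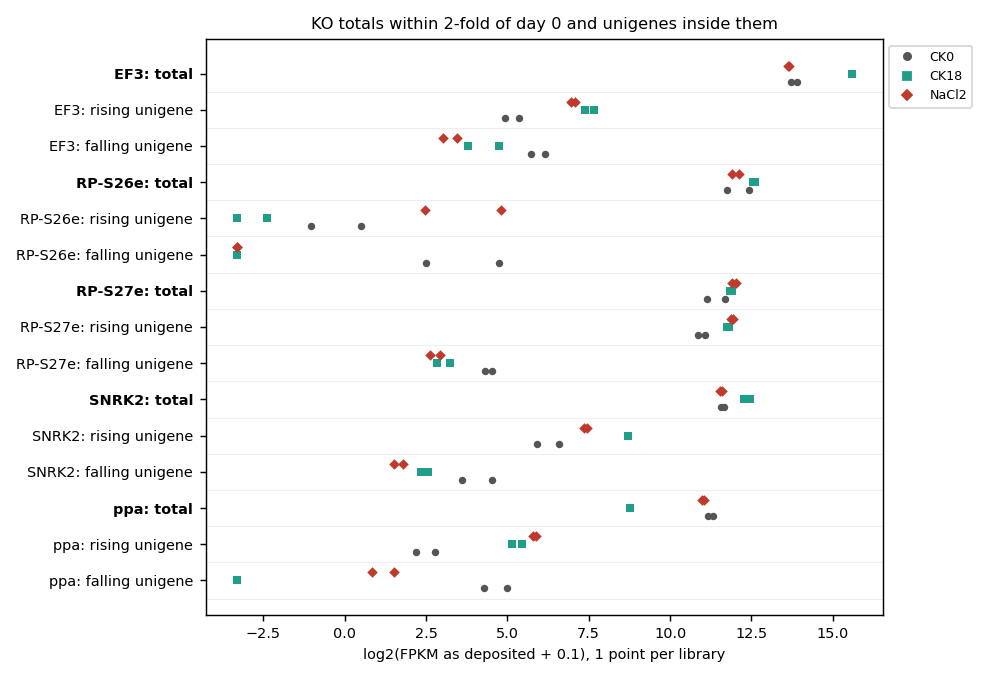
Kept KO totals (bold) with a higher and a lower unigene inside them, in each library as log2 of FPKM plus 0.1. The total of elongation factor 3 stands at 13519 and 15227 FPKM in CK0 and 12836 and 12504 in NaCl2, while a unigene inside it rises from 30.1 and 40.8 to 136 and 123 and another falls from 52.8 and 71.7 to 8.02 and 10.8.

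Citrate synthase, the entry of the tricarboxylic acid cycle, had a total of 982 and 1057 FPKM in CK0 and 1054 and 1011 in NaCl2. One mitochondrial-type unigene rose from 29.6 and 30 to 184 and 169 (3.02 ± 0.19, adjusted p = 0.00379) and another citrate synthase unigene fell from 57.9 and 38.8 to 4.84 and 6.51 (-2.59 ± 0.33, adjusted p = 0.0104). Glutathione S-transferase, which joins glutathione to toxic compounds, had a total of 1006 and 892 FPKM in CK0 and 1482 and 1304 in NaCl2, with a unigene that rose from 234 and 333 to 864 and 823 (2.06 ± 0.25, adjusted p = 0.00965) and one of the theta class that fell from 40.5 and 41.9 to 6.09 and 5.41 (-2.36 ± 0.40, adjusted p = 0.0185). Unigenes of 1 KO can be paralogs, alleles or fragments of 1 gene, and the files do not tell these apart.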

How the data were processed

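The 12 libraries of *Chlorella* sp. TLD6B hold 6 groups, of which CK0, CK18 and NaCl2 (6 libraries) were fitted. The authors assembled reads with Trinity, clustered transcripts with Corset, aligned with Bowtie 2, counted with RSEM, and deposited FPKM with 2 decimals. Read counts were not used here, so depth per unigene is unknown and no counting error is given. The deposited annotation table gave lengths and matches to KO, SwissProt and NR, the protein database of NCBI. Each library was divided by a size factor, the median ratio of its values to their geometric mean across the fitted libraries, taken separately for unigenes and KO totals, 0.1 was added and log2 taken. Features with at least 0.3 FPKM in at least 2 of the 6 libraries were kept.

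The 3 groups were fitted together in limma 3.58.1 (R 4.3.3) with an intensity trend and 3 residual degrees of freedom. Tests were two-sided with Benjamini-Hochberg adjustment over all features tested. Thresholds are given with the results. The fit was tested on simulated data. KO totals were named by rule: the 10 largest increases and 10 largest decreases among called ones with a mean of at least 10 FPKM and groups that do not overlap, the 10 kept totals with the largest CK18 difference, totals listed at 0 in one group, and from each list the largest called increase and decrease and the 2 most abundant. Unigenes with a SwissProt description were named likewise, 5 in each direction, and 5 more in each direction if listed at 0 in a group. A further 81 KO totals could be named after their values were seen. Lists match KO names, and 6 wrong matches were removed. Green algal matches are NR best matches to listed genera. The members and lists were chosen with earlier results of these data known. Alternatives covered pseudocounts of 1 and 0.01, filters, scaling, thresholds, the Q30 class, all 12 libraries, only CK0 and NaCl2, the replicate block, sums by NR match, leaving out each library and, added after seeing the data, green algal matches only. No sequences are shown, and 0 sample columns were left unmapped. The split at 50% green algal matches, the grouping of plastid-encoded genes and the list of green algal genera were set after the values were seen.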

Additional observations from a re-analysis of the deposited data

How the results depend on the processing

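Higher calls of KO totals, 462 in the fit reported, were 734 without a limit on the fold change and 939 with the scaling factors of the unigenes. Lower calls, 451, were 193 at an adjusted p under 0.01 and 220 with the scaling factors of the unigenes. Leaving out each library in turn gave 378 to 488 higher, 238 to 415 lower and 602 to 1209 kept totals. For unigenes, higher calls were 5909 with the Q30 class as a covariate, 2569 at an adjusted p under 0.01, 3970 among sums by NR match and 5030 with green algal matches only. Lower calls were 3465 without a filter, 3542 with a mean of at least 1 FPKM, 3353 with the Q30 class, 1067 at an adjusted p under 0.01 and 1529 among sums by NR match. Leaving out each library gave 0 to 8359 higher and 0 to 5532 lower unigenes. Histone H1/5 reversed, from -1.29 to 1.04 (adjusted p = 0.176), with green algal matches only, because its total is nearly all from a match to a land plant. The replicate numbers were not taken to pair libraries, since 2 pairs cannot settle it: differences of replicates 1 and 2 of CK0 and NaCl2 correlated at 0.104 over unigenes and 0.446 over KO totals. With the replicate block, 7649 higher and 4233 lower unigenes and 469 higher, 471 lower and 1125 kept KO totals were found, and no named total changed its call. FPKM without counts limit what can be said of values near 0. Over all alternatives, 4184 values of named KO totals kept their side of the thresholds, 223 lost their call, 57 gained one and 1 reversed. A change of sign was counted as reversed only where the total was called in the fit reported or in the alternative. Totals without a call in either may therefore have changed sign among the 4184.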
